A study of Homo sapiens with 9 samples.

Results

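Interferon-stimulated genes are the genes a cell transcribes when it senses interferon or viral nucleic acid, and 60 of them, with the interferon regulatory factors IRF1, IRF7 and IRF9 among them, were followed here in arrays labelled as SK-BR-3, a breast cancer cell line with amplified ERBB2. The genes were chosen by name, and each was read from the brightest probe set that the array annotation assigned to that gene alone. All 60, of the 18417 genes with a probe set of their own, were on the array, and 51 reached a log2 signal of 5 in at least 1 array, as did 17482 of all 33297 probe sets. RSAD2, CMPK2, MX2, DHX58, HERC5, XAF1, EPSTI1, LAMP3 and RTP4 did not reach it and were left out of every count below. The RNA was hybridised to 9 Affymetrix Human Gene 1.0 ST arrays, 3 labelled as SK-BR-3 cells stably overexpressing TFPIα, 3 as cells overexpressing TFPIβ and 3 as cells with the empty vector pTOPO. TFPI is tissue factor pathway inhibitor, a protein that restrains blood coagulation, and the comparisons ask which transcripts differ once either of its isoforms is expressed from the plasmid pcDNA3.1/V5/His-pTOPO. All cells were stably transfected and then selected, with puromycin by the labels and neomycin by the methods. The TFPI lines are described as pools of stable cells and the replicates as separate RNA isolations, so the spread between arrays is that of isolations from single cell lines. An array is named below by its label and replicate number, as in TFPIα 1, and values are log2 signals from robust multi-array averaging (RMA), given as mean ± SD.

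The TFPI signal in the RMA values used here cannot check the labels. The transfected cDNA held the coding region alone. According to the study, its signal was missed by TFPI probes that read untranslated sequence, which the cDNA lacks. The study also reports higher TFPI in both lines when the arrays were summarised by another algorithm, PLIER. That summary was not run here, and the study's other measures of TFPI were not analysed. TFPI had log2 signals of 5.66, 5.81 and 5.51 in the TFPIα-labelled arrays, 5.55, 5.79 and 5.81 in the TFPIβ-labelled ones and 5.81, 6.48 and 6.45 in the empty vector ones. The arrays labelled as overexpressing were level with or below those labelled empty vector, and every direction below is that of the labels. Few of the markers bore out the labelled cell line. Of 10 luminal and ERBB2-region markers 9 reached a signal of 5, with the luminal keratins KRT18 and KRT7 at 10.40 ± 0.43 and 10.45 ± 0.18 (SD, n = 9 each). The others of that list had means from 3.63 (ESR1) to 6.52 (STARD3), with ERBB2 at 5.88 ± 0.18 and KRT19 at 4.88 ± 0.20. At the 65.7th percentile of all probe sets, ERBB2 did not show the high signal that its amplification would give. The basal keratins KRT5 and KRT14, which a luminal line should lack, had 12.64 ± 0.16 and 12.43 ± 0.29 (SD, n = 9 each), at percentiles 99.9 and 99.8. Mesenchymal markers VIM, DCN, COL1A1, COL1A2 and THY1 had means of 10.55, 10.13, 7.07, 4.34 and 4.29. Leukocyte markers matter because immune cells respond strongly to interferon. PTPRC was at 2.19 to 2.28, whereas CD14 was at 6.46 to 9.12, lowest in TFPIβ 2 and highest in empty vector 3. Of these markers 5 of 6 had a probe set, and 1, CD14, reached a signal of 5. The summed signal of these 5 was 19.3 to 19.9 in the TFPIα-labelled arrays, 18.5 to 20.2 in the TFPIβ-labelled ones and 18.7 to 20.9 in the empty vector ones. The summed signal of 10 proliferation genes was 87.5 to 88.3 for TFPIα, 65.9 to 88.0 for TFPIβ and 70.4 to 80.8 for empty vector. Correlations across probe sets were 0.953 to 0.990 within groups and 0.944 to 0.987 between them.

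Type I and type III interferons signal through receptors coupled to the kinases JAK1 and TYK2, which lead to a complex holding IRF9 that binds the interferon-stimulated response element (ISRE) in the promoters of its targets. Interferon gamma acts through JAK1 and JAK2 and on genes with a gamma-activated site (GAS). The products of the target genes block viral entry, cut or sequester viral RNA, tag proteins with ISG15 and raise the sensitivity of the cell to viral RNA and DNA. Most of these genes are kept at a low level in the absence of interferon, and they are known to stay raised together in subsets of tumour cells.

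The promoters of the members show what these genes have in common beyond their names. RefSeq windows of 300 bases around the gene start (GRCh38.p14) were at hand for 48 of the 60 members, and were searched for an ISRE core, GAAANNGAAA, on both strands, and for a GAS core, TTCNNNGAA, whose reverse complement is the same motif. A match of one may overlap a match of the other, since both hold the letters GAA. The sites below belong to genes whose signals are described further on, and each is read 5′ to 3′ on the strand that carries the letters, with the ISRE core in capitals.
IFITM1, chr11:314024-314053, plus strand: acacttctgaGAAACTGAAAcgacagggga
IFITM3, chr11:320876-320905, minus strand: aaactgttgaGAAACCGAAActactgggga
IFIT1, chr10:89392497-89392526, minus strand: accgaaagggGAAAGTGAAActaaagctag
IFIT3, chr10:89332425-89332454, minus strand: ctcttgagggGAAACTGAAAcagaatctgt
IFI6, chr1:27672288-27672317, minus strand: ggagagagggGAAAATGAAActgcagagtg
IFI44L, chr1:78620274-78620303, plus strand: tcctagtgagGAAAAAGAAAgttagtggca
MX1, chr21:41420559-41420588, plus strand: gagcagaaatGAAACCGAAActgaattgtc
PARP14, chr3:122680800-122680829, plus strand: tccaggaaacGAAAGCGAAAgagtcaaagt
PARP9 and DTX3L, chr3:122564322-122564351, plus strand: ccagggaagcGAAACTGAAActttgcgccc
OAS3, chr12:112938452-112938481, plus strand: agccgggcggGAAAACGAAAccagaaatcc
The GAS core is in capitals in the windows of IRF1 and IRF9, which held no ISRE core.
IRF1, chr5:132490879-132490907, minus strand: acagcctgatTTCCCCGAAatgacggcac
IRF9, chr14:24161192-24161220, plus strand: accacgtgatTTCTGGGAAaaggccctcc

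The ISRE core was found in 32 of the 48 members (66.7%), against 4.38% of the 27305 genes in the same table, and the GAS core in 15 of 48 (31.2%), against 9.38% of genes. Counted by windows, since some genes have more than 1, the shares were 56.9% of 65 member windows and 3.57% of all 35116 windows for the ISRE core, and 26.2% and 7.66% for the GAS core. In 10 members both cores were present and in 11 neither was, namely CMPK2, RNF213, ADAR, UBE2L6, HERC6, TRIM25, SP100, IFI16, SAMD9L, SAMHD1 and XAF1. PARP9 and DTX3L lie head to head on chromosome 3 and shared 1 site, which began at position -41 from the start of PARP9 and at -6 from that of DTX3L. IFI44L carried its 30 printed bases a further time, at chr1:78620365-78620394, so that its windows held the same core at -164 and -73. In IFITM1 the ISRE core ran from -6 to 4, and a GAS core from -12 to -4 overlapped it. These matches describe the letters in the windows and are not measurements of binding.

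**Figure D1:**
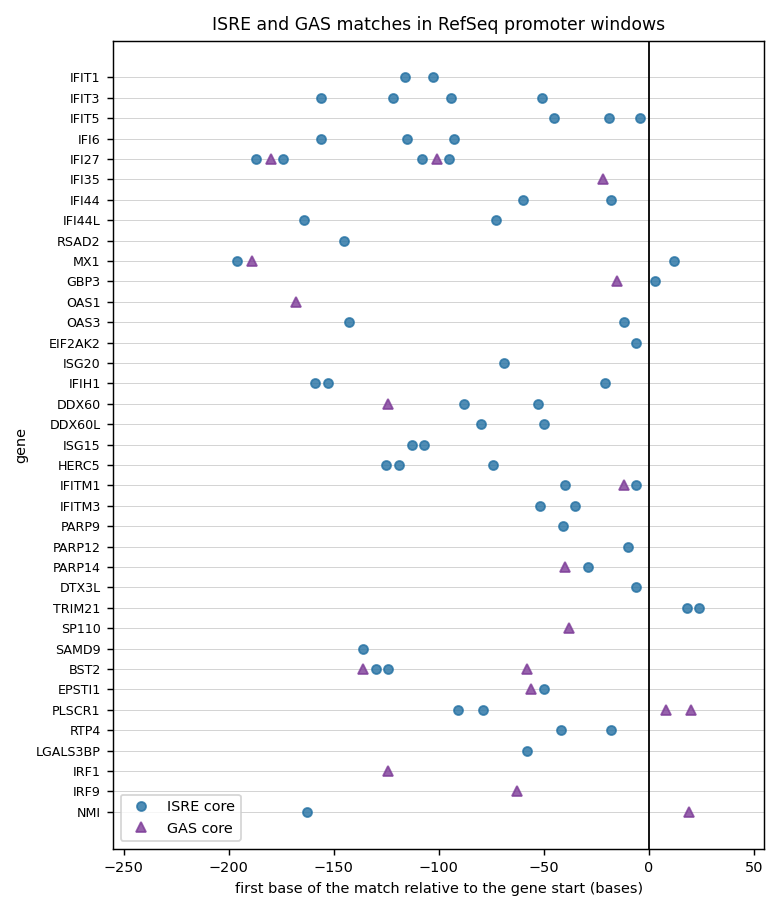
Position of each ISRE core (circles) and GAS core (triangles) in the RefSeq promoter windows of the 37 members that held either, as the distance in bases of the first base of the match from the gene start (horizontal axis), with the genes down the page. Most ISRE cores lie before the gene start, the farthest of them at -196.

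Averaged over the 51 members, the arrays differed little, and the array with the highest average was empty vector 1. The mean deviation of the members from their own averages over the 9 arrays was 0.01, -0.17 and -0.07 in the TFPIα-labelled arrays, 0.11, -0.03 and -0.20 in the TFPIβ-labelled ones and 0.27, 0.12 and -0.02 in the empty vector ones. The group means were -0.08 ± 0.09, -0.04 ± 0.16 and 0.12 ± 0.14 (SD, n = 3 each). Values of all 3 groups therefore overlapped. Within each replicate number the array labelled empty vector had the highest average of the 3, and within each group replicate 1 had the highest. By replicate number, the averages were 0.13 ± 0.13 for number 1, -0.03 ± 0.14 for number 2 and -0.10 ± 0.09 for number 3 (SD, n = 3 each), and these overlapped too. In bulk RNA a lower signal can come from fewer cells that express a gene or from less RNA per cell, and these cannot be told apart.

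**Figure D2:**
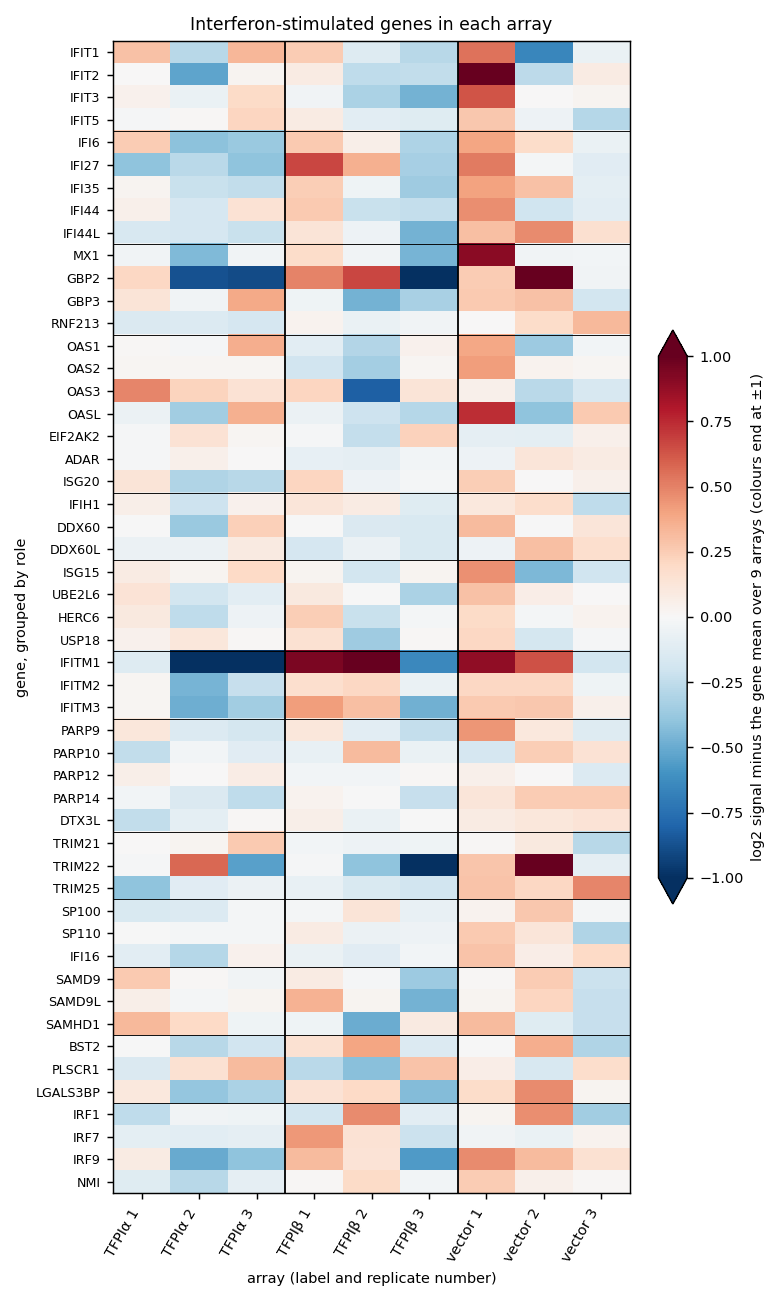
Log2 signal of each of the 51 members (rows, grouped by role) in each of the 9 arrays (columns, by label and replicate number) minus the average of the gene over the 9 arrays, with colours ending at ±1. The column of empty vector 1 is red in most rows, and IFITM1 reaches both ends of the colour range.

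**Figure D3:**
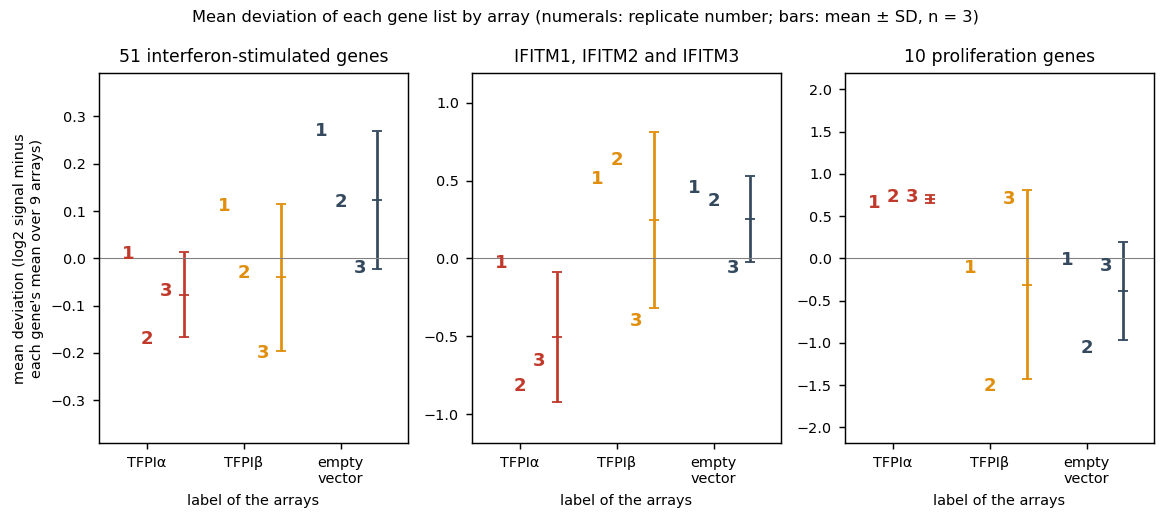
Mean deviation, in log2 units, of the 51 members (left), of IFITM1, IFITM2 and IFITM3 (middle) and of 10 proliferation genes (right) in each array, shown as the replicate number, with bars for the mean ± SD of each label (n = 3). The IFITM average was lowest in TFPIα 2, TFPIα 3 and TFPIβ 3, and the proliferation average was highest in the 3 arrays labelled TFPIα and in TFPIβ 3.

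Comparison of the arrays labelled TFPIα with those labelled empty vector asks whether the secreted isoform goes with a different interferon program. No member passed the limma test, which required an adjusted p under 0.05 and a 2-fold difference, in either direction; of all probe sets tested, 0.00572% passed as higher and 0% as lower. The lowest adjusted p of a member was 0.335. From these arrays the study itself reports DDX60, IFI44, IFI44L, IFIT1, IFIT2, IFIT3, MX1, OAS2, PARP9 and SAMD9 as its most upregulated transcripts with TFPIα. In the deposited values their log2 fold changes lay between -0.49 (IFI44L) and 0.17 (IFIT1). The study also reports that qRT-PCR upheld its array results for all selected mRNAs, IFI27, IFIT2, IFITM1 and MX1 among them. By its own thresholds it calls far more transcripts in either TFPI line than the 1 (TFPIα) and 0 (TFPIβ) probe sets that passed here. The reason for these differences was not tested. Most members lay on the lower side without passing. The log2 fold change was below 0 for 37 of 51 members, against 50% of all probe sets, and the median was -0.17, against 0.00 for all probe sets. At an unadjusted p under 0.05, 10 members were lower (19.6% of the 51, against 5.58% of all probe sets) and 0 were higher (against 8.59%). In 11 members all arrays labelled TFPIα lay below all those labelled empty vector (21.6%, against 8.85% of all probe sets), and in 1, OAS3, all lay above (1.96%, against 14.4%). An unmoderated one-way model also called 0 members, with 7 lower at the unadjusted threshold (against 4.58% of all probe sets), and a fit with the replicate number as a block called 0, with 18 lower (against 8.38% of all probe sets) and a lowest adjusted p of 0.183. Single arrays decided part of these counts: without empty vector 1 the median was -0.09 and 5 members were lower at the unadjusted threshold (against 5.24% of all probe sets), and without TFPIα 2 there were 4 (against 2.8%). Within replicate numbers 1, 2 and 3 the median difference was -0.21, -0.27 and -0.05, and 43, 39 and 28 of the 51 members were below 0.

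TRIM25, a ubiquitin ligase that activates the RNA sensor RIG-I, had the smallest p of the members in this comparison. Its log2 signals were 7.38, 7.67 and 7.72 in the TFPIα-labelled arrays, 7.71, 7.63 and 7.59 in the TFPIβ-labelled ones and 8.07, 7.99 and 8.27 in the empty vector ones. Neither set of TFPI arrays overlapped the empty vector arrays, and the TFPI arrays overlapped each other. Relative to empty vector, the log2 fold change was -0.52 (standard error 0.12, 95% interval -0.79 to -0.25, limma adjusted p = 0.335) for TFPIα and -0.47 (0.12, -0.74 to -0.20, adjusted p = 0.801) for TFPIβ. Both comparisons share the empty vector arrays. No ISRE or GAS core was in the window of TRIM25.

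The ADP-ribosyltransferase PARP14, a regulator of STAT signalling, lies at chr3:122680839-122730840 (GRCh38.p14), close to PARP9 and DTX3L. It had signals of 6.91, 6.79 and 6.68 in the TFPIα-labelled arrays, 6.97, 6.93 and 6.71 in the TFPIβ-labelled ones and 7.06, 7.19 and 7.19 in the empty vector ones. Both TFPI labels were below the empty vector arrays with no overlap, by a log2 fold change of -0.35 (standard error 0.10) for TFPIα and -0.28 (0.10) for TFPIβ. DTX3L, a ubiquitin ligase that works in a complex with PARP9, had 6.60, 6.75 and 6.86 in the TFPIα-labelled arrays, 6.90, 6.78 and 6.84 in the TFPIβ-labelled ones and 6.93, 6.96 and 6.98 in the empty vector ones. Its fold changes were smaller, -0.23 (0.09) and -0.12 (0.09), but its values did not overlap either. For TFPIβ the gap was narrow, 6.90 in TFPIβ 1 against 6.93 in empty vector 1, and the 95% interval was -0.32 to 0.08. PARP9, which shares the ISRE core with DTX3L, had 6.55, 6.30 and 6.26, then 6.55, 6.33 and 6.20, then 6.88, 6.54 and 6.31 in the arrays labelled TFPIα, TFPIβ and empty vector, and these overlapped. For PARP10 the log2 fold change against empty vector was -0.21 with TFPIα and -0.02 with TFPIβ, and for PARP12 it was 0.07 and 0.01.

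IFI44L, whose product dampens antiviral signalling in human cells, was at 7.65, 7.64 and 7.59 in the TFPIα-labelled arrays, 7.94, 7.76 and 7.34 in the TFPIβ-labelled ones and 8.11, 8.28 and 7.97 in the empty vector ones. Here too both TFPI labels stayed below empty vector, with log2 fold changes of -0.49 (standard error 0.15) for TFPIα and -0.44 (0.15) for TFPIβ. IFI44, its neighbour on chromosome 1, overlapped between all labels and had fold changes of -0.04 and -0.13. IFI16, a nuclear sensor of DNA, had signals of 8.50, 8.32 and 8.65 in the TFPIα-labelled arrays, 8.54, 8.49 and 8.58 in the TFPIβ-labelled ones and 8.89, 8.67 and 8.80 in the empty vector ones. The 3 empty vector arrays were again the highest, and the log2 fold changes were -0.29 (0.10) and -0.25 (0.10). RNF213, a large ubiquitin ligase with an ATPase domain, had 7.18, 7.19 and 7.16 in the TFPIα-labelled arrays, 7.36, 7.26 and 7.29 in the TFPIβ-labelled ones and 7.33, 7.51 and 7.65 in the empty vector ones. Only the arrays labelled TFPIα lay apart from empty vector here (-0.32, standard error 0.09), whereas those labelled TFPIβ overlapped it (-0.19, 0.09). The study instead lists RNF213 as upregulated with both isoforms, a difference whose reason was not tested. In the other probe set of RNF213, with 7.17, 7.09 and 7.04 in the TFPIα-labelled arrays, 7.14, 7.17 and 7.21 in the TFPIβ-labelled ones and 7.17, 7.36 and 7.60 in the empty vector ones, TFPIα 1 was level with empty vector 1. IFI44L, IFI16 and RNF213 each had a limma adjusted p of 0.335 for TFPIα and 1 for TFPIβ.

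**Figure D4:**
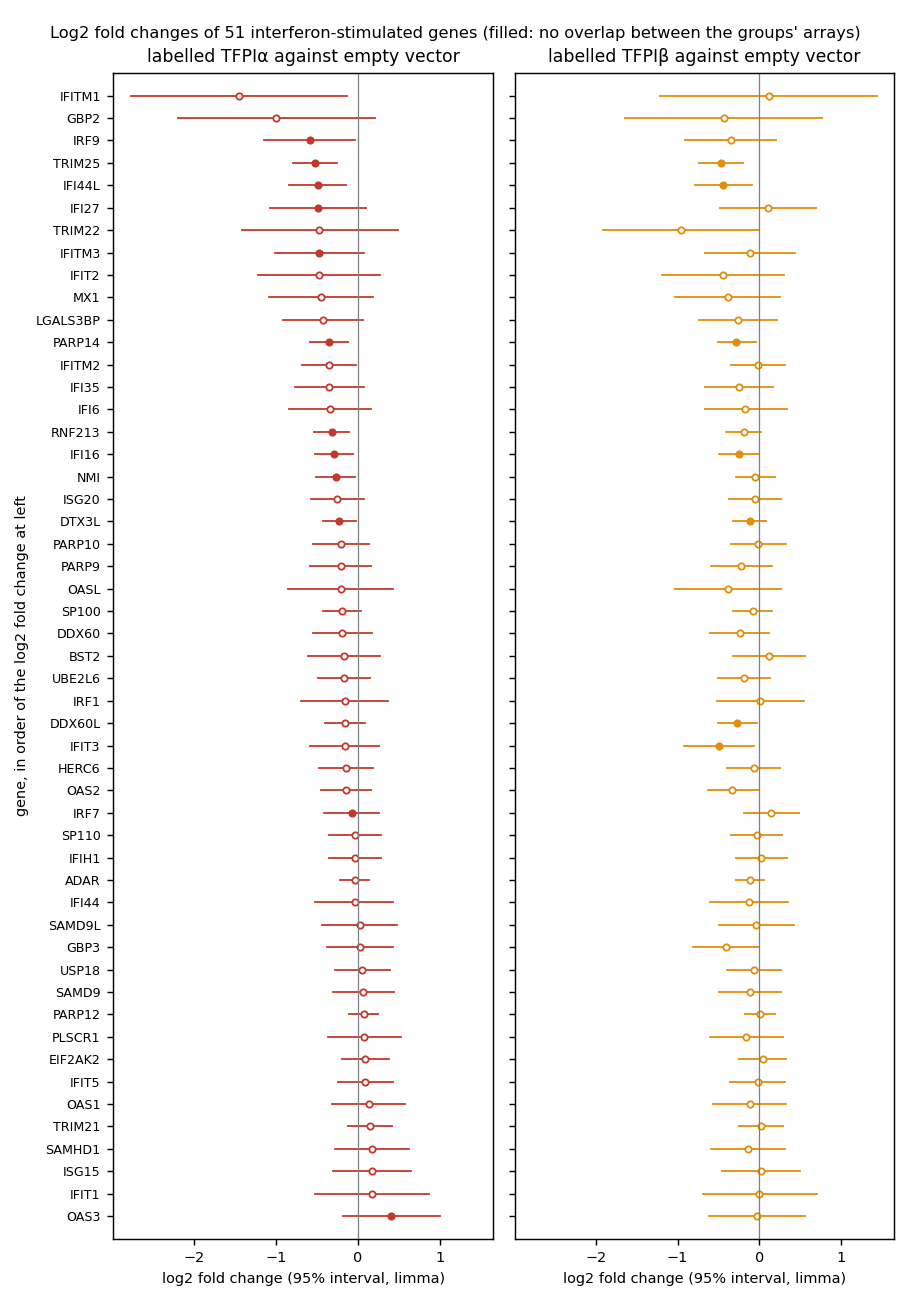
Log2 fold change with its 95% interval from limma (horizontal axes) for each of the 51 members (rows) in the arrays labelled TFPIα (left) and TFPIβ (right) against those labelled empty vector, with filled points where the 3 arrays of one label lie wholly above or below those of the other. TRIM25, IFI44L, PARP14, IFI16 and DTX3L are filled in both panels, which share the empty vector arrays, while IFITM1 lies at -1.45 on the left and at 0.12 on the right.

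The IFITM genes had a lower average in the arrays labelled TFPIα than in those labelled TFPIβ or empty vector, although none passed the test. They encode small membrane proteins that stop viruses from fusing with the cell, at the plasma membrane for IFITM1 and in endosomes for IFITM2 and IFITM3, and they lie together on chromosome 11, IFITM2 at chr11:307816-309395, IFITM1 at chr11:314040-315272 and IFITM3 at chr11:319676-320860 (GRCh38.p14). IFITM1 had log2 signals of 5.96, 4.57 and 4.70 in the TFPIα-labelled arrays, 7.03, 7.48 and 5.44 in the TFPIβ-labelled ones and 6.97, 6.72 and 5.90 in the empty vector ones. With a range of 2.91 over the 9 arrays it varied more than any other member. The arrays TFPIα 2 and TFPIα 3 were the lowest, and TFPIβ 3 came next, below every empty vector array. Against empty vector the log2 fold change was -1.45 (standard error 0.58, 95% interval -2.78 to -0.13, limma adjusted p = 0.346) for TFPIα and 0.12 (0.58, -1.21 to 1.44, adjusted p = 1) for TFPIβ. IFITM1 was the only member past 2-fold in the first of these, by its fold alone, with GBP2 just short of it at -1.0 (0.53). The arrays labelled TFPIβ exceeded those labelled TFPIα by 1.57 (0.58, 0.25 to 2.90, adjusted p = 0.532), with overlap between TFPIβ 3 and TFPIα 1. The value for TFPIβ against empty vector was -0.07 without TFPIβ 1, -0.30 without TFPIβ 2, -0.20 without empty vector 3 and 0.72 without TFPIβ 3, so its sign rested on single arrays.

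IFITM2 had signals of 8.09, 7.61 and 7.84 in the TFPIα-labelled arrays, 8.24, 8.28 and 8.01 in the TFPIβ-labelled ones and 8.28, 8.28 and 8.03 in the empty vector ones. IFITM3 had 10.23, 9.72 and 9.86 in the TFPIα-labelled arrays, 10.63, 10.51 and 9.73 in the TFPIβ-labelled ones and 10.47, 10.48 and 10.26 in the empty vector ones. For both genes, as for IFITM1, the lowest 3 arrays were TFPIα 2, TFPIα 3 and TFPIβ 3. Fold changes against empty vector were -0.35 (standard error 0.14) and -0.47 (0.24) for TFPIα, and -0.02 (0.14) and -0.11 (0.24) for TFPIβ. The IFITM genes are near-identical in parts of their sequence, so their probes may take up each other's RNA and the 3 values are not fully separate. The median log2 fold change of the IFITM genes against that of the other 48 members was -0.47 against -0.17 for TFPIα over empty vector, -0.02 against -0.12 for TFPIβ over empty vector and 0.35 against -0.01 for TFPIβ over TFPIα. Within replicate numbers 1, 2 and 3 the IFITM median was -0.24, -0.77 and -0.40 for TFPIα against empty vector, 0.05, 0.03 and -0.46 for TFPIβ against empty vector, and 0.40, 0.80 and 0.17 for TFPIβ against TFPIα. The sign was the same in all 3 numbers for the first and last of these comparisons, but not for TFPIβ against empty vector. Over single arrays, the IFITM median minus that of the other members had a pooled SD within groups of 0.27. A low median for TFPIα against empty vector was not particular to the IFITM genes. The TRIM genes also had -0.47, and MX1, GBP2, GBP3 and RNF213 together had -0.39.

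Proliferation genes also varied over these arrays. Their mean deviation was 0.65, 0.73 and 0.72 in the TFPIα-labelled arrays, -0.12, -1.51 and 0.70 in the TFPIβ-labelled ones and -0.02, -1.06 and -0.09 in the empty vector ones. The 4 arrays with the highest proliferation average were thus TFPIα 1, TFPIα 2, TFPIα 3 and TFPIβ 3, the last 3 of which held the lowest IFITM1 signals. The summed signal of 5 mesenchymal markers was 35.2 to 36.0 in the TFPIα-labelled arrays, 35.2 to 36.6 in the TFPIβ-labelled ones and 36.3 to 37.8 in the empty vector ones, and did not overlap between TFPIα and empty vector. The part of either in the values of the members was not tested.

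**Figure D5:**
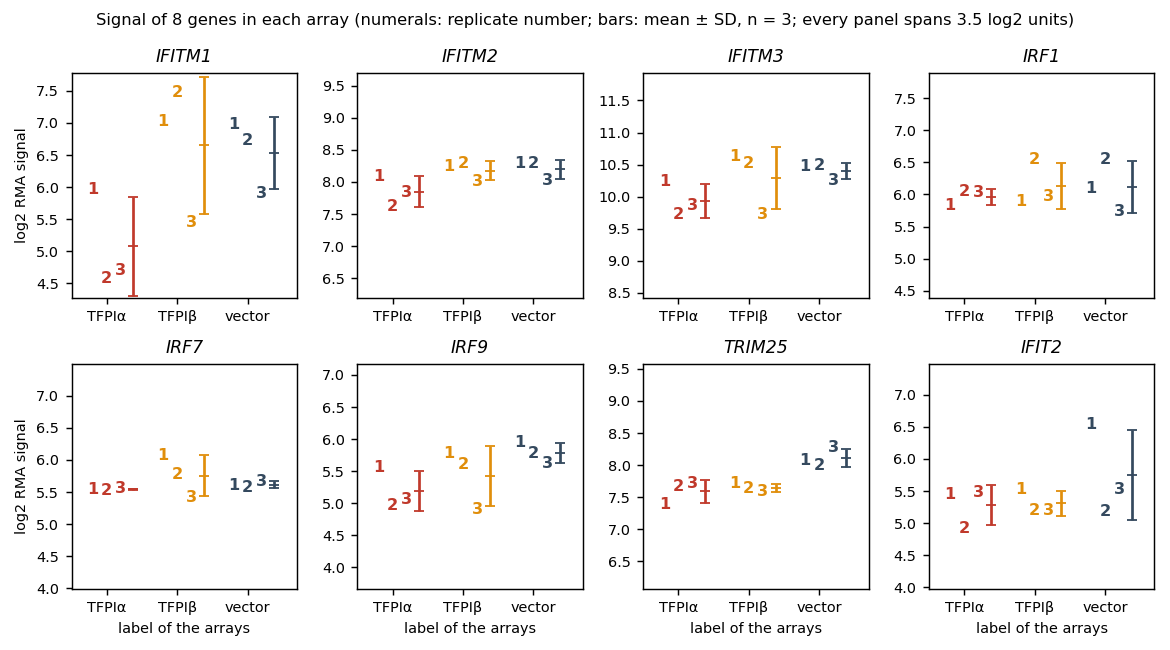
Log2 RMA signal of 8 members in each array, shown as the replicate number, with bars for the mean ± SD of each label (n = 3). Every panel spans 3.5 log2 units, so that IFITM1 (4.57 to 7.48) fills its panel, TRIM25 shows both TFPI labels below empty vector, and IFIT2 shows empty vector 1 alone at 6.54.

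Among the regulatory factors, IRF9, the DNA-binding subunit of the type I interferon complex, had 5.55, 4.96 and 5.06 in the TFPIα-labelled arrays, 5.78, 5.60 and 4.90 in the TFPIβ-labelled ones and 5.94, 5.78 and 5.62 in the empty vector ones. The arrays labelled TFPIα were below empty vector without overlap, and TFPIβ 3 was the lowest of all 9. The log2 fold change was -0.59 (standard error 0.24, limma adjusted p = 0.346) for TFPIα and -0.35 (0.24, adjusted p = 1) for TFPIβ. IRF7, which drives the amplification of type I interferon, had 5.54, 5.53 and 5.55 in the TFPIα-labelled arrays, 6.07, 5.78 and 5.42 in the TFPIβ-labelled ones and 5.60, 5.57 and 5.67 in the empty vector ones. The first and last of these labels did not overlap, but the distance was small (-0.07, 0.15), and the arrays labelled TFPIβ spread on both sides of the others (0.14, 0.15), which was still the highest log2 fold change of a member for TFPIβ against empty vector. IRF1, a factor induced by interferon gamma, had 5.82, 6.04 and 6.03 in the TFPIα-labelled arrays, 5.89, 6.55 and 5.97 in the TFPIβ-labelled ones and 6.10, 6.54 and 5.73 in the empty vector ones. All labels overlapped, and TFPIβ 2 and empty vector 2 were the highest. NMI, which binds STAT proteins and IRF7, had 6.26, 6.10 and 6.29 in the TFPIα-labelled arrays, 6.39, 6.57 and 6.35 in the TFPIβ-labelled ones and 6.63, 6.43 and 6.39 in the empty vector ones. The arrays labelled TFPIα were below all the others, with a log2 fold change of -0.27 (0.10) against empty vector and 0.22 (0.10) for TFPIβ over TFPIα.

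The comparison of the arrays labelled TFPIβ, the isoform anchored to the cell surface, with those labelled empty vector again gave 0 members past the limma test in either direction (0% of all probe sets higher, 0% lower), and the lowest adjusted p of a member was 0.801. The log2 fold change was below 0 for 40 of 51 members, against 49.5% of all probe sets, with a median of -0.12 against 0.00. At the unadjusted threshold of 0.05, 9 members were lower (17.6%, against 2.23% of all probe sets) and 0 higher (against 2.49%). In 7 members the groups did not overlap and TFPIβ was lower (13.7%, against 3.74%), and in 0 it was higher (against 3.43%). The one-way model called 0 members and had 5 lower at the unadjusted threshold (against 2.35% of all probe sets), and the block fit called 0 and had 10 (against 3.51%). Leaving out 1 array lowered the 9 to 3 without TFPIβ 3 (against 2.68% of all probe sets), 4 without TFPIβ 2 (1.98%), 5 without TFPIα 1 (2.12%) and 5 without empty vector 1 (2.02%). The median was -0.21 without TFPIβ 1, -0.19 without empty vector 3, -0.08 without TFPIβ 3 and -0.07 without empty vector 1. Within replicate numbers 1, 2 and 3 it was -0.13, -0.15 and -0.15, with 37, 37 and 36 members below 0.

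Besides TRIM25, IFI44L, PARP14, DTX3L and IFI16, the members whose TFPIβ and empty vector arrays did not overlap were IFIT3 and DDX60L. IFIT3, which steadies IFIT1 on viral RNA, had 5.29, 5.01 and 4.86 in the TFPIβ-labelled arrays, 5.37, 5.26 and 5.52 in the TFPIα-labelled ones and 5.96, 5.33 and 5.36 in the empty vector ones. The gap between TFPIβ 1 and empty vector 2 was narrow, and the log2 fold change of -0.50 (standard error 0.19) was -0.29 without empty vector 1. DDX60L, a helicase-like antiviral protein, had 5.21, 5.32 and 5.23 in the TFPIβ-labelled arrays, 5.32, 5.32 and 5.47 in the TFPIα-labelled ones and 5.33, 5.68 and 5.55 in the empty vector ones, with a fold change of -0.27 (0.11). OAS2, which makes the 2-5 oligoadenylates that switch on RNase L, had 4.85, 4.70 and 5.06 in the TFPIβ-labelled arrays, 5.06, 5.06 and 5.06 in the TFPIα-labelled ones and 5.46, 5.08 and 5.06 in the empty vector ones. Only 5 of its 9 values were distinct, and TFPIβ 3 tied with empty vector 3 at 2 decimals. Its log2 fold change of -0.33 (0.13) was -0.20 without empty vector 1. TRIM22, a ubiquitin ligase that restricts retroviruses, had the lowest log2 fold change of a member for TFPIβ, -0.96 (0.42). Its signals were 7.22, 6.83 and 6.20 in the TFPIβ-labelled arrays, 7.22, 7.81 and 6.69 in the TFPIα-labelled ones and 7.51, 8.47 and 7.14 in the empty vector ones. Empty vector 2 stood well above the rest, and TFPIβ 1 overlapped empty vector 3.

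Between the arrays labelled TFPIβ and TFPIα, the isoforms, the members did not share a direction. The limma test called 0 members (0% of all probe sets higher, 0% lower), with a lowest adjusted p of 0.532. Of the 51, 24 were below 0, against 50.3% of all probe sets, and the median was 0.03. At the unadjusted threshold 3 members, IFI27, IFITM1 and IFITM2, were higher (5.88%, against 3.94% of all probe sets) and 1, GBP3, was lower (1.96%, against 4.7%). Without overlap, 2 members were higher, RNF213 and NMI (3.92%, against 6.15%), and 3 were lower, GBP3, ADAR and TRIM21 (5.88%, against 7.1%). These shares were near those of all probe sets. The one-way model had 0 in each direction at the unadjusted threshold, the block fit again 3 higher and 1 lower. The 3 were 0 without TFPIα 2, TFPIα 3, TFPIβ 1 or TFPIβ 2, 1 without empty vector 2 and 7 without TFPIβ 3 (against 9.69% of all probe sets).

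IFI27, a mitochondrial protein and one of the most inducible of these genes, had 5.95, 5.64 and 4.95 in the TFPIβ-labelled arrays, 4.88, 5.01 and 4.88 in the TFPIα-labelled ones and 5.80, 5.26 and 5.17 in the empty vector ones. TFPIβ 3 lay between the TFPIα values, and the other TFPIβ arrays lay above them, for a log2 fold change of 0.59 (standard error 0.26). GBP3, a guanylate-binding protein, had 6.57, 6.14 and 6.29 in the TFPIβ-labelled arrays, 6.74, 6.58 and 6.99 in the TFPIα-labelled ones and 6.88, 6.91 and 6.43 in the empty vector ones. Its TFPIβ arrays all lay below its TFPIα arrays (-0.43, 0.18), though the nearest were almost level. GBP2, of the same family, spread over 2.24 log2 units, with 5.41, 5.58 and 3.88 in the TFPIβ-labelled arrays, 5.12, 4.04 and 4.02 in the TFPIα-labelled ones and 5.17, 6.13 and 4.88 in the empty vector ones. As in IFITM1, its lowest 3 values were those of TFPIα 2, TFPIα 3 and TFPIβ 3. The lowest log2 fold change of a member for TFPIβ over TFPIα was that of TRIM22, -0.49 (0.42).

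Members were also compared by replicate number. In a limma F test of the number with the label as the other term, 0 members passed an adjusted p under 0.05 (0% of all probe sets), while 16 had an unadjusted p under 0.05 (31.4% of members, against 16% of all probe sets). Without TFPIβ 1 there were 6 of 50 (against 9.85% of all probe sets) and without empty vector 2 there were 7 of 51 (against 11.3%), near the shares of all probe sets. For 39 of 51 members the average of the number 1 arrays was above that of the number 2 arrays (76.5%, against 58.2% of all probe sets), and for 40 it was above that of the number 3 arrays (78.4%, against 54.8%). The smallest p belonged to IFI6, a mitochondrial and endoplasmic reticulum protein that blocks flavivirus replication and apoptosis. It had 7.68, 7.02 and 7.06 in the TFPIα-labelled arrays, 7.69, 7.49 and 7.12 in the TFPIβ-labelled ones and 7.82, 7.61 and 7.36 in the empty vector ones, with averages of 7.73, 7.37 and 7.18 for numbers 1, 2 and 3 (adjusted p = 0.229). In every label its number 1 array was the highest.

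IFI35, the partner of NMI, followed the same order, with averages of 7.32, 7.10 and 6.86 for numbers 1, 2 and 3. Its signals were 7.12, 6.87 and 6.85 in the TFPIα-labelled arrays, 7.34, 7.05 and 6.74 in the TFPIβ-labelled ones and 7.50, 7.39 and 7.0 in the empty vector ones. PARP9 also did, with 6.66, 6.39 and 6.26. HERC6, a ubiquitin ligase of the family that attaches ISG15, had 5.73, 5.38 and 5.58 in the TFPIα-labelled arrays, 5.88, 5.41 and 5.61 in the TFPIβ-labelled ones and 5.82, 5.61 and 5.67 in the empty vector ones, so that number 2 was the lowest in every label. ISG20, an exonuclease of RNA, had 5.04, 4.61 and 4.63, then 5.12, 4.86 and 4.89, then 5.15, 4.91 and 4.96 in the arrays labelled TFPIα, TFPIβ and empty vector, and number 1 was the highest in each. It reached a signal of 5 in its number 1 arrays alone. ISG20 thus entered the measured members, and the counts by number, only through the arrays where it was highest. TRIM22 ran otherwise, with 7.32, 7.70 and 6.68 for numbers 1, 2 and 3.

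Empty vector 1 held the highest signal of the 9 arrays for 21 of the 51 members (41.2%, against 10.4% of all probe sets), a count made after the values had been seen. They included the IFIT genes, MX1, OAS1, OAS2, OASL, ISG15, USP18 and IRF9. IFIT2, which binds viral RNA and slows translation, had 6.54 in that array, against 5.18 and 5.53 in the other arrays labelled empty vector, 4.92 to 5.47 in the TFPIα-labelled ones and 5.19 to 5.53 in the TFPIβ-labelled ones. MX1, a dynamin-like antiviral GTPase, had 6.18 there, against 5.24 and 5.25 in the other empty vector arrays, 4.84 to 5.24 in the TFPIα-labelled arrays and 4.81 to 5.46 in the TFPIβ-labelled ones. The remaining 8 arrays lay between 4.92 and 5.53 for IFIT2 and between 4.81 and 5.46 for MX1. Of the measured members with an ISRE core 11 of 28 were in this set, and of those without 6 of 14. TFPIα 2, TFPIα 3 and TFPIβ 3 held the lowest 3 signals for 13 members (25.5%, against 10.3% of all probe sets), a count likewise made after the values had been seen, and these included the IFITM genes, GBP2, MX1, IFI6, IFI44L, LGALS3BP and IRF9.

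By role, the sign of the fold change against empty vector ran together in some groups of members and not in others. All 5 measured IFI genes were below 0 for TFPIα (median -0.35) and 4 of 5 for TFPIβ (median -0.17). SP100, SP110 and IFI16, proteins of the nucleus, were below 0 for both, with medians of -0.20 for TFPIα and -0.08 for TFPIβ. The OAS enzymes with EIF2AK2 (the kinase PKR), ADAR (an RNA-editing enzyme) and ISG20 lay near 0, with medians of -0.04 and -0.11. OAS3 among them had the highest log2 fold change of a member for TFPIα, 0.41 (standard error 0.26, limma adjusted p = 0.460), from signals of 5.96, 5.69 and 5.61 in the TFPIα-labelled arrays, 5.68, 4.65 and 5.60 in the TFPIβ-labelled ones and 5.52, 5.20 and 5.31 in the empty vector ones. Its TFPIα arrays lay above every empty vector array, and TFPIβ 2 was far below the rest. SAMD9, SAMD9L and SAMHD1, of which SAMHD1 depletes deoxynucleotides, were above 0 for TFPIα (median 0.06) and below 0 for TFPIβ (median -0.12). Genes of the ISG15 conjugation system, ISG15, UBE2L6, HERC6 and the deconjugating enzyme USP18, had medians of -0.05 and -0.07. The RNA sensor IFIH1 (MDA5) had 5.28, 5.01 and 5.26 in the TFPIα-labelled arrays, 5.34, 5.30 and 5.10 in the TFPIβ-labelled ones and 5.32, 5.39 and 4.96 in the empty vector ones, which overlapped throughout. BST2 (tetherin), which holds budding viruses at the cell surface, and PLSCR1, a scramblase, had log2 fold changes of -0.17 and 0.08 for TFPIα and of 0.12 and -0.16 for TFPIβ, while LGALS3BP, a secreted glycoprotein, had -0.43 and -0.26. Median fold changes of members with and without an ISRE core were -0.17 and -0.17 for TFPIα against empty vector, -0.11 and -0.13 for TFPIβ against empty vector, and -0.03 and 0.05 for TFPIβ over TFPIα (28 members with, 14 without).

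The other genes of the interferon pathway, 43 ligands, receptors, kinases, sensors, factors and inhibitors, were read in the same way. Of these 28 were measured, 11 stayed under a signal of 5 and 4 were not analysed here. All interferon genes with a probe set but IFNL3 were under 5 in every array, with IFNB1 at 1.46 to 1.87 and IFNG at 1.94 to 2.26. Relative to empty vector, 21 of the 28 were below 0 for TFPIα (against 50% of all probe sets), with a median of -0.14. For TFPIβ 25 of the 28 were below 0 (against 49.5%), with a median of -0.15. The median of all probe sets was 0.00 for both. In the limma test 0 of the 28 passed in any of the 3 comparisons. At the unadjusted threshold 4 of the 28 were lower for TFPIα against empty vector (against 5.58% of all probe sets) and 2 for TFPIβ against empty vector (against 2.23%), with 0 higher in either. For TFPIβ over TFPIα 1 was lower, RIGI (against 4.7%), and 1 was higher, IFNGR1 (against 3.94%).

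IFNGR1, the ligand-binding chain of the interferon gamma receptor, had the smallest p of these for TFPIα. Its signals were 10.02, 9.40 and 9.63 in the TFPIα-labelled arrays, 10.36, 10.74 and 9.93 in the TFPIβ-labelled ones and 10.49, 10.84 and 10.43 in the empty vector ones. As with IFITM1, TFPIα 2, TFPIα 3 and TFPIβ 3 were the lowest 3 arrays, and TFPIα did not overlap empty vector. The log2 fold change was -0.90 (standard error 0.23, limma adjusted p = 0.335) for TFPIα and -0.24 (0.23, adjusted p = 1) for TFPIβ, and TFPIβ exceeded TFPIα by 0.66 (0.23, adjusted p = 0.532). JAK1, the kinase that all interferon receptors use, had 7.69, 7.66 and 7.53 in the TFPIα-labelled arrays, 7.77, 7.86 and 7.48 in the TFPIβ-labelled ones and 7.92, 7.96 and 8.03 in the empty vector ones. STAT3, which many cytokines activate, had 9.54, 9.29 and 9.41 in the TFPIα-labelled arrays, 9.69, 9.43 and 9.07 in the TFPIβ-labelled ones and 9.76, 9.82 and 9.79 in the empty vector ones. Empty vector arrays were the highest for both genes, with log2 fold changes of -0.34 (0.11) and -0.38 (0.15) for TFPIα and of -0.26 (0.11) and -0.40 (0.15) for TFPIβ. For STAT3 the study reports the opposite, upregulation with either isoform on its arrays, upheld by qRT-PCR. The reason for this was not tested. PIAS1, an inhibitor of cytokine signalling, had 8.12, 7.66 and 7.49 in the TFPIα-labelled arrays, 8.24, 8.26 and 7.56 in the TFPIβ-labelled ones and 8.34, 8.43 and 8.10 in the empty vector ones. TFPIα 1 overlapped empty vector 3, and the log2 fold change was -0.53 (0.23) for TFPIα. RIGI, the sensor that TRIM25 acts on, had 5.22, 5.53 and 5.93 in the TFPIα-labelled arrays, 5.02, 4.37 and 5.20 in the TFPIβ-labelled ones and 5.68, 4.95 and 5.22 in the empty vector ones, and its log2 fold change for TFPIβ over TFPIα was -0.70 (0.28).

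The 9 members that did not reach a signal of 5 add little. RSAD2 (viperin), a radical SAM enzyme that terminates viral RNA synthesis, had 4.81 in empty vector 1, against 3.59 and 4.05 in the other arrays labelled empty vector, 3.73 to 4.01 in the TFPIα-labelled ones and 3.36 to 3.93 in the TFPIβ-labelled ones, so that its highest array was the one that held the IFIT2 and MX1 maxima. CMPK2, the neighbour of RSAD2, stayed between 4.71 and 4.81, and MX2 between 3.12 and 3.58. The ligase HERC5 was at 2.99 to 3.48 and RTP4 at 3.17 to 3.34. Of the 60 members, 2 had a further probe set of their own, GBP2 and RNF213, and the dimmer probe set of GBP2 gave 4.24, 4.02 and 3.92 in the TFPIα-labelled arrays, 4.16, 4.77 and 3.67 in the TFPIβ-labelled ones and 3.99, 5.22 and 4.18 in the empty vector ones. There too empty vector 2 was the highest array and TFPIβ 3 the lowest.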

How the data were processed

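The study measured messenger RNA in 9 samples with Affymetrix Human Gene 1.0 ST arrays. The authors normalized the scans by RMA, using Partek software (versions not given in the sources used here), and deposited a log2 signal for each transcript-level probe set. Base 2 is not named in the sources and was inferred from how high the values go. Depth has no meaning for arrays, so their number, 3 per group, limits the precision.

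Probe sets whose highest signal was under 5 were removed, the rule given in the methods of the study, although the number it left here was lower than the number the study states. Gene symbols came from the platform annotation and gene positions from RefSeq (GRCh38.p14). One linear model over the 9 arrays was fitted by lmFit and eBayes (limma 3.58.1, R 4.3.3), p-values were adjusted by Benjamini-Hochberg over the 17482 probe sets tested, and calling a gene took at least a 2-fold difference besides an adjusted p under 0.05. The study used a 1-way ANOVA, which was run here in an unmoderated form as an alternative. An exact permutation test of 3 against 3 arrays cannot go below p = 0.1, so none was run. The fits were tested on simulated data. Motif searches and figures were made in Python 3.11.15 with matplotlib 3.10.9.

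Arrays with the same replicate number deviated together: the 9 such pairs of different labels had correlations of 0.137 to 0.594 in their deviations from the group means, against -0.512 to 0.266 for the other 18 pairs. These ranges overlapped, with 0.266 for TFPIβ 3 and empty vector 1, and the labels do not say what the numbers share. The numbers may therefore pair the arrays, and a fit with the number as a block was run as an alternative. The other alternatives were no filter, a filter at 6, median-centred arrays, eBayes with trend and robust estimation, only the compared groups in the fit, an adjusted p under 0.10, the mean of all probe sets of a gene, the mean in place of the median, each array left out in turn and, added after the data had been seen, all arrays of 1 replicate number left out.

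The 60 genes, their groups by role and the pathway list were chosen with earlier results of these data known. Signals in every array are given for the IFITM and IRF genes, for the 6 members with the smallest p in each test, for those with the highest and lowest fold change in each comparison and for pathway genes with an unadjusted p under 0.05, while IFIT2, MX1, GBP2, RSAD2 and IFIH1 were added after their values had been seen. No promoter window was used for 12 members. Other experiments of the study were not used here.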

Additional observations from a re-analysis of the deposited data

How the results depend on the processing

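No member was called in any comparison under any alternative. Over all alternatives the counts of calls and the medians of the comparisons stayed the same or within 1 SD between replicates 176 times and moved farther 2 times. Part of the 176 was fixed in advance, since leaving out an array cannot change the median of a comparison without it. The SD for member medians was 0.13, beside medians of -0.17, -0.12 and 0.03. A median of -0.05 for TFPIβ against TFPIα therefore still counted as unchanged. The 2 that moved were the IFITM genes minus the other members with the mean in place of the median, -0.59 for TFPIα against empty vector and 0.76 for TFPIβ against TFPIα. With each array left out in turn this difference was -0.46 to -0.25 for TFPIα against empty vector, -0.08 to 0.25 for TFPIβ against empty vector and 0.26 to 0.56 for TFPIβ against TFPIα. With the replicate number as a block, 0 members were called in each comparison, the lowest adjusted p of a member being 0.183, 0.529 and 0.320, and the block changed no call of a member. Over all probe sets it called 0, against 1 without the block, for TFPIα against empty vector, and 1, against 0, for TFPIβ against TFPIα.

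Single genes that changed sign, none of them called, were mostly near 0. For TFPIβ against empty vector the omission of single arrays gave -0.30 to 0.72 for IFITM1, -0.10 to 0.06 for IFITM2, -0.28 to 0.17 for IFITM3, -0.20 to 0.22 for IRF1 and -0.01 to 0.31 for IRF7. IRF1 was also -0.36 to 0.05 for TFPIα against empty vector and -0.03 to 0.29 for TFPIβ against TFPIα. Centred arrays gave 0.00 for IRF1 in TFPIβ against empty vector. Without all arrays numbered 1, IRF7 was -0.02 for TFPIβ against empty vector. Without those numbered 2, IRF1 was 0.01 for TFPIα against empty vector and 0.00 for TFPIβ against TFPIα, and IFITM1 was -0.20 for TFPIβ against empty vector. Without those numbered 3, IFITM3 was 0.09 and IRF1 -0.10 for TFPIβ against empty vector. The cause was not tested. The 3 arrays per group come from isolations of single cell lines, so p-values measure only the spread between isolations.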
